A study of Callithrix jacchus with 4 samples.

Results

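Amyloid-degrading peptidases are the enzymes that cut amyloid-β, the peptide that builds up in Alzheimer's disease, and other small peptides into fragments. The genes described here are MME, IDE, ECE1, ECE2, PITRM1 and THOP1, the 6 of 7 listed peptidase symbols present in a count table of 35108 genes. The seventh listed symbol, ACE, had no row of its own name. It is described from the row named LOC100408147, whose number is the NCBI gene ID that RefSeq pairs with ACE, and so lies outside the choice by symbol. All 7 genes had enough counts to be tested.

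Frontal cortex of adult common marmosets (Callithrix jacchus) was profiled by RNA sequencing in 4 libraries. The 2 transgenic libraries came from females that carried mutant amyloid precursor protein (APP) transgenes driven by the human EF1α promoter, a promoter active in most cell types, and the 2 wild-type libraries came from animals whose sex is not labelled. The labels name no treatment. They do not state that each library had its own animal, so the p-values measure the spread between libraries, which may in part be technical. The comparison asks what differed in cortical gene expression between APP transgenic and wild-type animals.

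Clearance of amyloid-β in the brain relies in part on zinc metallopeptidases placed in different compartments. Neprilysin (MME), the endothelin-converting enzymes (ECE1 and ECE2) and angiotensin-converting enzyme (ACE) are membrane-bound, with their active sites facing the extracellular space or the lumen of vesicles. Insulin-degrading enzyme (IDE) and thimet oligopeptidase (THOP1) are mostly cytosolic, and the presequence protease PITRM1 works in the mitochondrial matrix. None of these enzymes is specific to amyloid-β. Each is also known for other substrates, among them enkephalins and tachykinins for neprilysin, big endothelin for the endothelin-converting enzymes, angiotensin I for ACE and insulin for IDE.

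The counts summed to between 13462167 and 18932180 in the transgenic libraries and between 12657323 and 13569838 in the wild-type libraries. Levels are given as CPM (counts scaled to the library total after TMM adjustment between libraries, as in the main test). They were not compared between genes, because transcript lengths were not used here. All 8 markers of excitatory neurons and all 9 of inhibitory neurons were detected in every library. Transgenic library 2 stood apart. Its 8 astrocyte markers summed to 2582 CPM, against 7338 CPM in transgenic library 1 and 6807 to 8169 CPM in the wild-type libraries. Its 8 oligodendrocyte markers summed to 1156 CPM, against 3147 CPM in transgenic library 1 and 2530 to 3234 CPM in the wild-type libraries. The astrocyte marker GFAP was an exception, at 635 CPM in transgenic library 2 and 695 and 517 CPM in wild-type libraries 1 and 2. So was the oligodendrocyte marker MAG, at 67.5 CPM in transgenic library 2 and 90.1 and 62.7 CPM in wild-type libraries 1 and 2. The other markers of both lists were lower in transgenic library 2 than in either wild-type library. S100A9, a calcium-binding protein of neutrophils and monocytes, had 3 and 3705 counts in transgenic libraries 1 and 2 and 10 and 8 counts in wild-type libraries 1 and 2, and S100A8 had 0 and 585 counts in the transgenic libraries and 4 and 0 counts in the wild-type libraries. Microglial markers were low in both transgenic libraries: all 9 were lower in sign, 6 did not overlap between groups (against 19.4% of all genes tested, on the lower side), and they summed to 135 and 85.1 CPM in transgenic libraries 1 and 2 and to 186 and 251 CPM in wild-type libraries 1 and 2. Of these markers DESeq2 called TYROBP (adjusted p = 0.04996) and edgeR called none. The part of microglia and of blood cells in the values below was not tested. The Y-linked gene KDM5D had 0 counts in both transgenic libraries while wild-type libraries 1 and 2 held 2 and 243. Sex can therefore not be fully told apart from genotype. With such unlike counts the 2 wild-type libraries are unlikely to come from the same animal. The spread between them may include a sex difference, which was not tested. In bulk tissue, fewer cells of a type and less RNA per cell cannot be told apart.

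None of the 7 genes passed the threshold of an adjusted p of 0.05. Over all 16385 genes tested, edgeR's quasi-likelihood test called 0 genes (0%), while 921 genes (5.62%) had an unadjusted p under 0.05, 3.23% of all genes on the higher side and 2.39% on the lower. DESeq2 called 46 genes (0.201% of those it tested), none of them a peptidase of this group, and limma-voom called 0. Of the 7 genes, 1 had an unadjusted p under 0.05, the ECE2 gene. The groups did not overlap in 3 of the 7, with ECE2 higher and ECE1 and IDE lower in the transgenic libraries. Over all genes tested, 19.5% did not overlap and were higher and 19.4% did not overlap and were lower, so the members lay near the background. In sign 4 of the 7 were higher, against 49.6% of all genes tested. Their log2 fold changes had a median of 0.01, with -0.0022 for all genes tested.

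**Figure D1:**
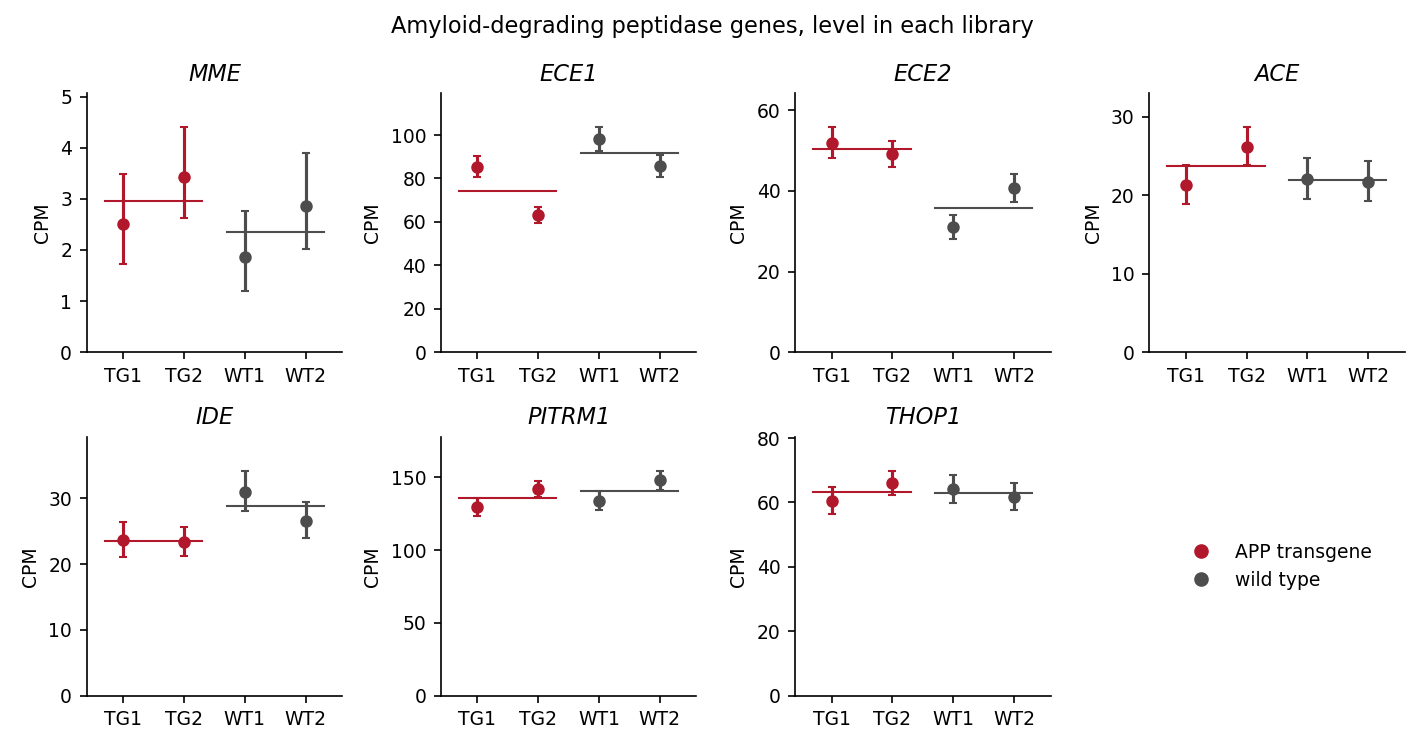
Level of each peptidase gene in each library, in CPM on a linear axis that starts at 0, with transgenic libraries (TG1, TG2) in red and wild-type libraries (WT1, WT2) in grey. Bars are 95% exact Poisson intervals and cover counting error only, and horizontal lines are group means. The points of the groups are apart for ECE2 and IDE. For IDE the bars overlap between groups, reaching 26.4 CPM in TG1 and starting at 23.96 CPM in WT2. For ECE1 the points nearly touch, with 85.4 CPM in TG1 just under 85.6 CPM in WT2.

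MME encodes neprilysin, the cell-surface peptidase most often linked to amyloid-β breakdown in rodent brain. It was the least sampled of the 7 genes, with 34 and 62 counts in transgenic libraries 1 and 2 and 24 and 39 counts in wild-type libraries 1 and 2. This gave 2.499 and 3.43 CPM in the transgenic libraries and 1.86 and 2.85 CPM in the wild-type libraries. The groups overlapped, since the value of transgenic library 1 fell inside the wild-type range. Counting error alone was wide: the 95% exact Poisson interval was 1.73 to 3.49 CPM for transgenic library 1 and 1.19 to 2.76 CPM for wild-type library 1. The fitted log2 fold change was 0.33 ± 0.40 (SE; edgeR adjusted p = 0.85). Its 95% interval ran from -0.67 to 1.34, which spans a 0.628-fold to a 2.54-fold level, so the interval takes in both no change and a 2-fold higher level.

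ECE1, which makes active endothelin from its precursor in endothelial and other cells, was at 85.4 and 63.2 CPM in transgenic libraries 1 and 2 and at 98.03 and 85.6 CPM in wild-type libraries 1 and 2. Transgenic library 2 was the low one, while transgenic library 1 was almost level with wild-type library 2. The means were 74.3 ± 15.7 CPM in transgenic and 91.8 ± 8.82 CPM in wild-type cortex (SD, n = 2 each). The log2 fold change was -0.31 ± 0.19 (SE; 95% interval -0.78 to 0.17; edgeR adjusted p = 0.79). Without transgenic library 2 it was -0.11, and without transgenic library 1 it was -0.54 (edgeR adjusted p = 0.067). The size of the difference rested largely on transgenic library 2. The part of glial cells in the ECE1 difference was not tested.

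ECE2 encodes the endothelin-converting enzyme of neurons and neuroendocrine cells, which works at the acidic pH of intracellular vesicles. It was at 51.8 and 49.1 CPM in transgenic libraries 1 and 2 and at 30.95 and 40.6 CPM in wild-type libraries 1 and 2. Both transgenic libraries lay above both wild-type libraries, and the 2 transgenic libraries differed by 1.06-fold, against 1.31-fold between the wild-type libraries. The means were 50.4 ± 1.95 CPM in transgenic and 35.8 ± 6.82 CPM in wild-type cortex (SD, n = 2 each), a fitted 1.41-fold level. The log2 fold change was 0.50 ± 0.18 (SE; 95% interval 0.03 to 0.96). In edgeR's test the unadjusted p was 0.039, which ranked 694 among all genes tested, and the adjusted p was 0.79. DESeq2 gave an unadjusted p of 0.037 and an adjusted p of 0.9999.

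The ECE2 difference kept its direction when each library was left out in turn. It was 0.45 without transgenic library 1, 0.53 without transgenic library 2, 0.71 without wild-type library 2 and 0.31 without wild-type library 1, on the log2 scale. Without wild-type library 1, the low library, the unadjusted p was 0.27. Markers of inhibitory neurons were higher in sign in 7 of 9 genes and did not overlap in 7, with 5 on the higher side (19.5% of all genes tested) and 2, PVALB and LAMP5, on the lower side (19.4%). The log2 fold change was -0.54 for PVALB and -0.37 for LAMP5. The summed level of the 9 markers was 843 and 965 CPM in the transgenic libraries and 767 and 782 CPM in the wild-type libraries. The 8 excitatory markers were split, 4 higher and 4 lower, and summed to 5787 and 6145 CPM in the transgenic libraries and to 5502 and 6663 CPM in the wild-type libraries. The part of these cell types in the ECE2 difference was not tested.

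The 2 endothelin-converting enzymes thus had fold changes of opposite sign. The log2 ratio of ECE2 to ECE1 counts within a library, which does not depend on library scaling, was -0.72 and -0.37 in transgenic libraries 1 and 2 and -1.66 and -1.08 in wild-type libraries 1 and 2. The groups did not overlap, and the mean was -0.54 in transgenic and -1.37 in wild-type cortex, a difference of 0.83. Part of that difference came from ECE1 in transgenic library 2 and from ECE2 in wild-type library 1. The smallest two-sided p of an exact permutation test with 2 libraries a group is 0.33. The ratio was therefore not tested, and the pair was chosen after its values were seen.

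ACE, which converts angiotensin I and is anchored on endothelial cells and some neurons, was at 21.3 and 26.2 CPM in transgenic libraries 1 and 2 and at 22.05 and 21.7 CPM in wild-type libraries 1 and 2. Transgenic library 2 was the high one and the other 3 libraries lay close together. The log2 fold change was 0.12 ± 0.19 (SE; 95% interval -0.35 to 0.59; edgeR adjusted p = 0.87), and it was -0.04 without transgenic library 2. Endothelial markers went the other way: 9 of 10 were lower in sign in transgenic cortex and 7 did not overlap on the lower side, against 19.4% of all genes tested. They summed to 273 and 205 CPM in transgenic libraries 1 and 2 and to 422 and 311 CPM in wild-type libraries 1 and 2, and their log2 fold changes had a median of -0.78. ECE1 had the same sign as this list and ACE the opposite one. The part of endothelial cells in either value was not tested.

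IDE encodes insulin-degrading enzyme, a zinc peptidase that encloses small peptides such as insulin and amyloid-β in a chamber. It was at 23.7 and 23.4 CPM in transgenic libraries 1 and 2 and at 31.03 and 26.6 CPM in wild-type libraries 1 and 2. The transgenic libraries were nearly equal and both lay below the wild-type libraries. The means were 23.5 ± 0.21 CPM in transgenic and 28.8 ± 3.12 CPM in wild-type cortex (SD, n = 2 each). The log2 fold change was -0.29 ± 0.17 (SE; 95% interval -0.72 to 0.13; edgeR adjusted p = 0.79). It was lower in sign under each of the 12 alternatives run, between -0.40 and -0.18, with the smallest difference without wild-type library 1. The unadjusted p did not fall under 0.05 in any of them.

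PITRM1, which degrades cleaved targeting sequences in mitochondria, was at 129 and 142 CPM in transgenic libraries 1 and 2 and at 134 and 148 CPM in wild-type libraries 1 and 2. THOP1, which cuts short neuropeptides such as neurotensin and bradykinin, was at 60.5 and 66.01 CPM in the transgenic libraries and at 64.1 and 61.7 CPM in the wild-type libraries. In both genes the groups overlapped and the libraries lay close together: the highest library was 1.14-fold above the lowest for PITRM1 and 1.09-fold for THOP1, against a median of 1.45-fold over all genes tested. That median takes in genes with far fewer counts, where counting error widens the range, and depth was not matched. The log2 fold change was -0.05 ± 0.13 for PITRM1 (SE; edgeR adjusted p = 0.92) and 0.01 ± 0.13 for THOP1 (SE; edgeR adjusted p = 0.99). The 95% intervals ran from a 0.769-fold to a 1.21-fold level for PITRM1 and from a 0.799-fold to a 1.27-fold level for THOP1. Their signs changed with the library left out, and THOP1 was also lower in sign with library totals without scaling.

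**Figure D2:**
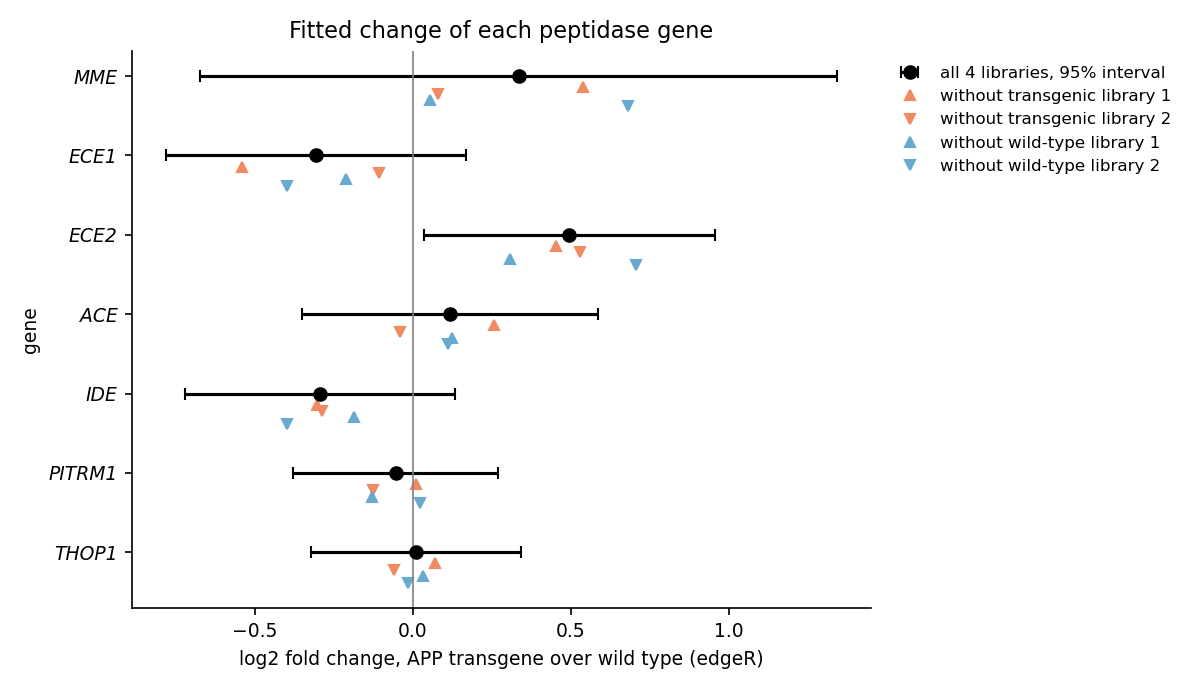
Fitted log2 fold change of each peptidase gene, APP transgene over wild type, with all 4 libraries (black, 95% interval from edgeR) and with each library left out (triangles). The interval of ECE2 alone lies above 0, from 0.03 to 0.96, before any adjustment over genes, and the triangles of MME reach from 0.05 to 0.68.

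Levels over the 4 libraries were set beside those of 80 related genes, as the root mean square difference of log2 levels centred on each gene's mean. The median difference between a peptidase and these genes lay between 0.18 and 0.37. A nearest gene has the smallest of 80 such differences, so it lies below that median by construction. The nearest gene to MME was PNOC, the nociceptin precursor, at 0.056, and the nearest to IDE was PARL, a rhomboid protease of the inner mitochondrial membrane, at 0.042. The somatostatin receptor gene SSTR1 was nearest to ECE2 at 0.053, with 26.02 and 24.2 CPM in transgenic libraries 1 and 2 and 14.2 and 20.6 CPM in wild-type libraries 1 and 2. INSR, the insulin receptor gene, was nearest to ECE1 at 0.080, RNPEP to ACE at 0.031, TPP2 to PITRM1 at 0.049 and NPR2 to THOP1 at 0.013. With 4 libraries, likeness of this kind describes these libraries only.

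**Figure D3:**
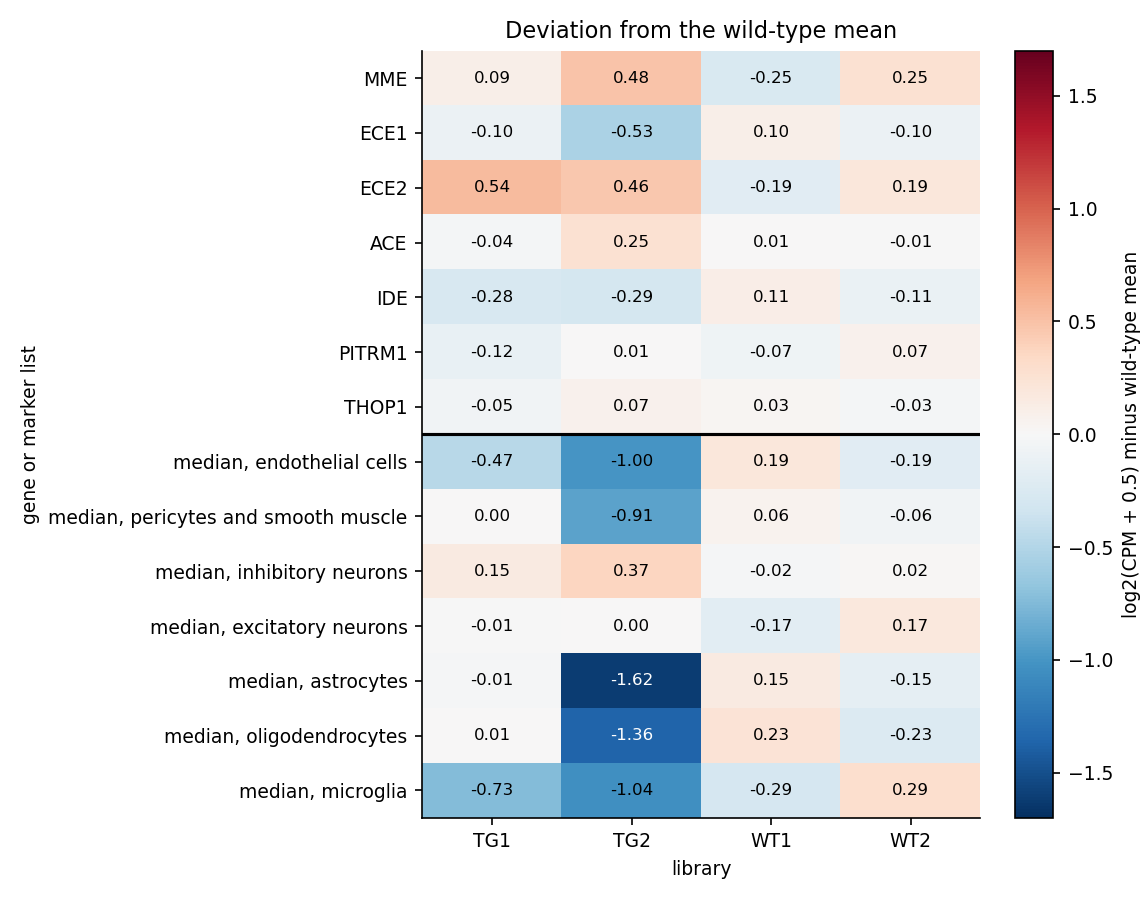
Deviation of each library from the wild-type mean on the log2(CPM + 0.5) scale, for the 7 peptidase genes (top) and as the median over markers of 7 cell types (bottom), with transgenic libraries on the left. The peptidase values stay between -0.53 and 0.54, while the marker medians of transgenic library 2 reach -1.62 for astrocytes.

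The wider set of genes around the peptidases was described by 7 lists, of which 107 of 108 entries were found in the table and 95 different genes were tested. None of the 95 passed edgeR's test. At an unadjusted p under 0.05 in edgeR there were 2 higher and 3 lower, against 3.23% and 2.39% of all genes tested. The log2 fold changes of the 95 genes centred on -0.03 (median). The share without overlap between groups was 35.8%, against 38.9% of all genes tested. DESeq2 called 1 gene of the lists, PDYN, and 0.201% of all genes it tested. Without transgenic library 1, edgeR called 16 of the 100 list genes then tested (16%), 8 higher and 8 lower, and 1710 of all 17234 genes (9.92%).

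Relatives in the same peptidase families split into 4 higher and 6 lower in sign, and their log2 fold changes had a median of -0.03, which was -0.20 without transgenic library 2. KEL, the endothelin-cleaving enzyme that carries the Kell blood group, was at 1.98 and 1.66 CPM in transgenic and 3.33 and 2.19 CPM in wild-type libraries 1 and 2 (edgeR adjusted p = 0.79). UQCRC1, matched like ACE by its NCBI gene ID and a core subunit of respiratory complex III that shares the fold of IDE and PITRM1, was at 135 and 149 CPM in transgenic and 165 and 156 CPM in wild-type libraries 1 and 2 (edgeR adjusted p = 0.80). NLN, neurolysin, the closest relative of THOP1, had a log2 fold change of -0.03.

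Other proteases known to cut amyloid-β, with the plasminogen activators, split into 6 higher and 5 lower in sign around a median of 0.04. Without transgenic library 2 they were 2 higher and 9 lower, with a median of -0.07, and without wild-type library 2 the median was 0.26. PLAT, the tissue plasminogen activator, was at 34.6 and 25.7 CPM in transgenic libraries 1 and 2 and at 56.5 and 38.8 CPM in wild-type libraries 1 and 2 (log2 fold change -0.66 ± 0.25 SE; edgeR adjusted p = 0.79). It was -0.37 without wild-type library 1. HTRA1, a secreted serine protease, was at 228 and 105 CPM in transgenic and 310 and 275 CPM in wild-type libraries 1 and 2. Both genes were lower in each transgenic library than in each wild-type library, as were 19.4% of all genes tested. HTRA1 was lowest in transgenic library 2. The part of glial cells in these values was not tested. The lysosomal proteases CTSB and CTSD had log2 fold changes of 0.04 and -0.03.

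Protease inhibitors split into 3 higher and 8 lower in sign around a median of -0.13. Without transgenic library 2 they were 5 higher and 6 lower, with a median of -0.28. CST3, cystatin C, an inhibitor of cathepsins, was at 344 and 192 CPM in transgenic libraries 1 and 2 and at 600 and 431 CPM in wild-type libraries 1 and 2 (log2 fold change -0.94 ± 0.32 SE; edgeR adjusted p = 0.79). Setting transgenic library 2 alone against the wild-type libraries moved the log2 value to -1.42 for CST3 and -1.48 for HTRA1. That fit rests on 1 transgenic library, the one that stood apart. With transgenic library 2 left out, CST3 had a log2 fold change of -0.58. HTRA1 had one of -0.36, against -0.81 with all libraries.

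The 12 neuropeptidases and aminopeptidases tested split into 7 higher and 5 lower in sign around a median of 0.06, which was -0.0074 without transgenic library 2. PREPL was at 785 and 942 CPM in transgenic and 732 and 758 CPM in wild-type libraries 1 and 2 (edgeR adjusted p = 0.80). ANPEP, aminopeptidase N, which in brain is also a pericyte marker, was at 3.75 and 0.997 CPM in transgenic and 5.42 and 4.46 CPM in wild-type libraries 1 and 2. Its log2 fold change was -1.08 with all libraries (edgeR adjusted p = 0.79), -2.30 without transgenic library 1 and -0.40 without transgenic library 2. Of the other 7 pericyte and smooth muscle markers, 6 were below the wild-type mean in transgenic library 2 and 3 in transgenic library 1, and their median deviation was -0.89 and 0.02 in those libraries.

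Mitochondrial proteases, the company of PITRM1, were lower in sign in 8 of 12 genes around a median of -0.11. In 6 of the 12 the groups did not overlap on the lower side, against 19.4% of all genes tested, and 0 of the 12 had an unadjusted p under 0.05. XPNPEP3 was at 8.16 and 5.98 CPM in transgenic and 9.98 and 11.2 CPM in wild-type libraries 1 and 2. IMMP1L, a subunit of the inner membrane peptidase, was at 9.33 and 7.70 CPM in transgenic and 10.6 and 12.6 CPM in wild-type libraries 1 and 2. The edgeR adjusted p was 0.79 for both. The list median was -0.03 without wild-type library 1 and -0.19 without wild-type library 2.

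Precursors of the peptides these enzymes cut were higher in sign in 13 of 18 genes, with a median of 0.22, which was 0.08 without transgenic library 2, 0.05 without wild-type library 1 and 0.37 without wild-type library 2. PDYN, which gives rise to the dynorphins, was at 63.4 and 103 CPM in transgenic and 18.3 and 19.5 CPM in wild-type libraries 1 and 2 (log2 fold change 2.14 ± 0.27 SE; adjusted p = 0.73 in edgeR and 2.99e-09 in DESeq2). PDYN passed edgeR's test when low counts were not filtered (adjusted p = 0.042). It did not pass in limma-voom (adjusted p = 0.74) or in edgeR with the replicate number as a block (adjusted p = 0.73). With each library left out in turn, its log2 fold change stayed between 1.74 and 2.45. The lowest value came from leaving out transgenic library 2 and the highest from leaving out transgenic library 1. EDN3, the precursor of endothelin 3, had 15 and 4 counts in transgenic and 33 and 27 counts in wild-type libraries 1 and 2, and a log2 fold change of -1.82. This was -3.30 without transgenic library 1, where it passed (edgeR adjusted p = 0.033), and -1.03 without transgenic library 2. SST, the somatostatin precursor, a peptide reported to raise neprilysin activity in mouse brain, had a log2 fold change of 0.10 ± 0.15 (SE; edgeR adjusted p = 0.88).

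Receptors of these peptides split into 8 higher and 13 lower in sign around a median of -0.08. The median was 0.01 without transgenic library 2 (11 higher, 10 lower), -0.27 without transgenic library 1, and -0.04 when either one of the wild-type libraries was left out. NTSR1, the high-affinity neurotensin receptor, was at 4.34 and 4.32 CPM in transgenic and 2.01 and 1.68 CPM in wild-type libraries 1 and 2 (log2 fold change 1.23 ± 0.33 SE; edgeR adjusted p = 0.79). SSTR3, a somatostatin receptor, was at 21.2 and 16.1 CPM in transgenic and 26.9 and 30.4 CPM in wild-type libraries 1 and 2. Its log2 fold change was -0.63 ± 0.21 (SE, edgeR adjusted p = 0.79) with all libraries. It moved to -0.84 without transgenic library 1 and to -0.44 without transgenic library 2. The insulin receptor gene INSR had a log2 fold change of -0.20 ± 0.16 (SE; edgeR adjusted p = 0.80). The 2 libraries of each group lay close together for NTSR1. The groups did not overlap for NTSR1 and SSTR3, as in 33.3% of the receptors tested and 38.9% of all genes tested. Both genes were named for their small p, which favours such a gap.

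**Figure D4:**
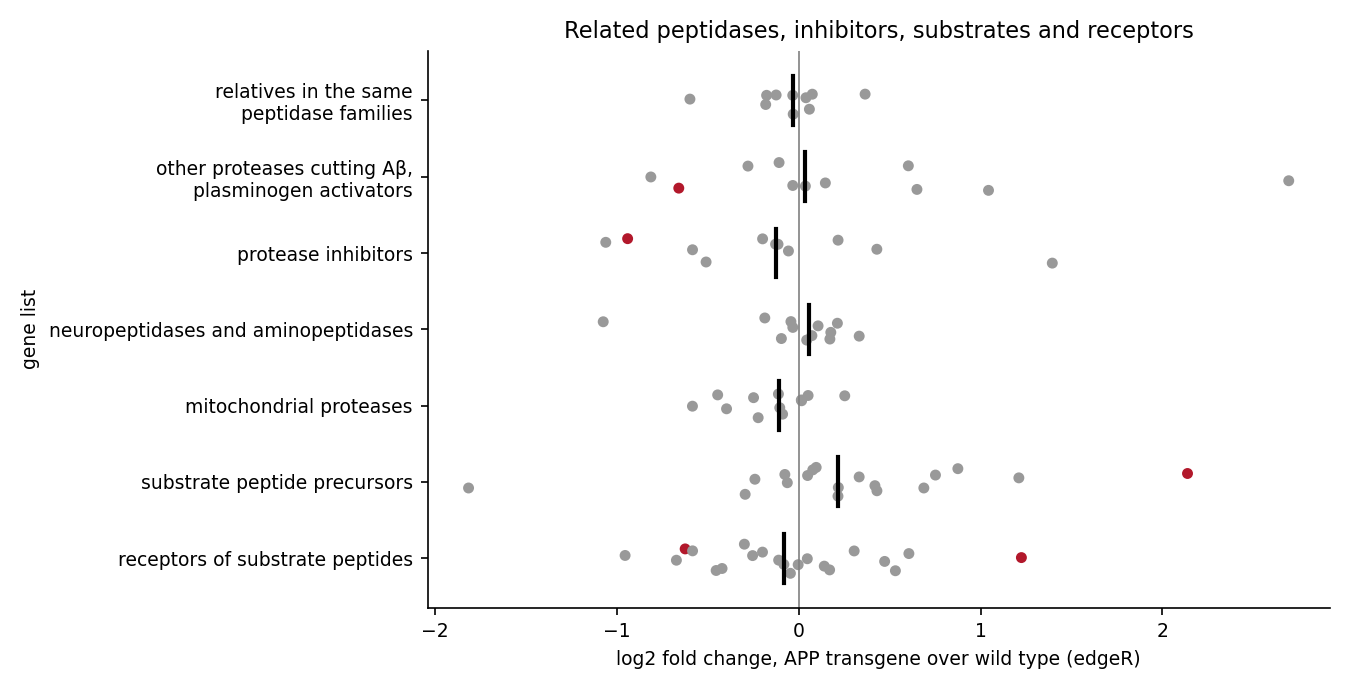
Fitted log2 fold change, APP transgene over wild type, of each tested gene in the 7 lists around the peptidases, 1 point per gene (red where the unadjusted edgeR p was under 0.05) with the list median as a black bar. The medians lie between -0.13 and 0.22, and the red point farthest to the right is PDYN at 2.14.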

How the data were processed

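The deposited table holds raw counts, whole numbers for each gene and library that the authors did not normalize. Tools listed in the submitters' processing notes, with no step attached to any, are featureCounts 1.5.2, kallisto 0.46.2 and STAR 2.5.3a. Genome build, annotation and strandedness: not given in the sources used here. Hence no coordinates are printed and reads of overlapping genes cannot be told apart. The peptidases and gene lists were chosen with earlier results of these data known. Of 199 list entries, 191 matched by symbol and 5 by NCBI gene ID.

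Counts were analysed in R 4.3.3. The main test was edgeR 4.0.16's quasi-likelihood F-test on TMM-scaled libraries with genotype as the only term (2 residual degrees of freedom), after filterByExpr. Benjamini-Hochberg adjustment ran over 16385 genes. Intervals use the fit's total degrees of freedom. The biological coefficient of variation was 24.5%. A count of 3 equals 0.166 to 0.232 CPM. Named list genes are the 2 with the smallest p among those of at least 1 CPM, and nearest genes those of at least 5 CPM. The result of 1 gene that met the rule is not reported here. A few others, in the text or below, were chosen after their values were seen. Alternatives were DESeq2 1.42.0, limma-voom (limma 3.58.1), other scalings, other filters, a replicate block and leaving out each library. Steps were tested on simulated data.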

Additional observations from a re-analysis of the deposited data

How the results depend on the processing

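No peptidase gene passed under any of the 12 alternatives run (11 for MME, whose mean count was under the minimum of 50). Leaving out a library in turn gave log2 fold changes of -0.042 (without transgenic library 2) to 0.258 for ACE, -0.130 to 0.023 (without wild-type library 2; 0.010 without transgenic library 1) for PITRM1, and -0.059 (without transgenic library 2; -0.015 without wild-type library 2) to 0.070 for THOP1, and library totals without scaling gave -0.039 for THOP1. The values with a library or setting named beside them are opposite in sign to those with all libraries. The cause was not tested. ECE2 stayed higher, at 0.31 to 0.71, with an unadjusted p under 0.05 in 8 of 12. Library totals without scaling moved the median of all genes to -0.05. Genes called numbered 5 with no filter on low counts, 46 in DESeq2 and 0 to 1710 when a library was left out, and genes of the 7 lists 1, 1 and 0 to 16. With the replicate number as a block edgeR called 0 genes, and ECE2 was at 0.51 (unadjusted p = 0.058). Deviations of same-numbered libraries were only weakly related over genes, with a negative sign (r = -0.14). A block that crosses the numbers, added after seeing the data, also gave 0 genes in edgeR. Where leaving out a library left a lone sample, it was assumed to vary like the other group. Depth limits MME most.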

Other observations

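Several genes around the peptidases were highest in transgenic library 2. They were chosen after their values were seen. In edgeR's test of the groups none of those tested had an unadjusted p under 0.05, and BDKRB2 had too few counts to be tested there. DESeq2 gave an unadjusted p of 0.0072 for BDKRB2 (adjusted p = 0.69) and of 0.022 for MMP3 (adjusted p = 0.9999). In DESeq2 the unadjusted p was above 0.05 for EDN1, ADM and CTSL. MMP3, stromelysin, had 9 and 139 counts in transgenic libraries 1 and 2 and 14 and 3 counts in wild-type libraries 1 and 2. EDN1, the precursor that ECE1 and ECE2 process to endothelin 1, had 27 and 261 counts in the transgenic libraries and 67 and 27 counts in the wild-type libraries. BDKRB2, the bradykinin receptor gene, had 7 and 69 counts in the transgenic libraries and 3 and 2 counts in the wild-type libraries. ADM, the adrenomedullin precursor, was at 8.23 and 25.9 CPM in transgenic libraries 1 and 2 and at 11.3 and 7.39 CPM in wild-type libraries 1 and 2. CTSL, cathepsin L, was at 45.5 and 94.03 CPM in the transgenic libraries and at 47.5 and 44.5 CPM in the wild-type libraries.

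IGF2, a growth factor that IDE also degrades, varied more within a group than between groups, at 83.9 and 26.5 CPM in transgenic libraries 1 and 2 and at 9.13 and 56.2 CPM in wild-type libraries 1 and 2. Markers of meninges and fibroblasts summed to 512 and 208 CPM in transgenic libraries 1 and 2 and to 321 and 525 CPM in wild-type libraries 1 and 2, in the same order within each group. The row that RefSeq pairs with the haemoglobin gene HBB had 73 and 1380 counts in the transgenic libraries and 3758 and 298 counts in the wild-type libraries, an order unlike that of S100A8 and S100A9, which were high in transgenic library 2 alone. The part of meninges or blood in any value above was not tested.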
